A study of Mus musculus with 5 samples.

Results

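The genes described here are 10 genes whose proteins coat, fill or empty the lipid droplet, the organelle in which a cell stores neutral fat. Cidec, Plin1, Plin2, Plin4 and Plin5 encode proteins of the droplet surface, Pnpla2 and Lipe encode lipases that release fatty acids from it, and Dgat2, Fasn and Scd1 encode enzymes that make its fatty acids and triglycerides. They were chosen by name and not by a measured value, though with earlier results of these data known. All 10 were found among the 21728 protein-coding genes with a unique symbol on the autosomes and the X chromosome in GENCODE M21 (mm10). For each gene, the bases covered by broad peaks of trimethylated lysine 27 of histone H3 (H3K27me3) were counted in 2 windows around its transcription start site (TSS), the promoter (3 kb to each side) and a wide window (25 kb to each side).

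H3K27me3 is placed by Polycomb repressive complex 2 and marks genes that are kept silent, and the demethylase Kdm6b (Jmjd3) removes it. Dermal fibroblast progenitors can become preadipocytes, which build up the fat layer under the skin, and droplet proteins and enzymes of triglyceride synthesis are produced in quantity as preadipocytes mature. In dermal fibroblasts that do not store fat, such adipocyte genes are largely unused, while Plin2 and Fasn are active in many cell types.

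ChIP-seq for H3K27me3 was performed on dermal fibroblasts from the skin of late mouse embryos after expansion in AmnioMAX medium. The Kdm6b-cKO libraries, replicates 3 and 4, came from Dermo1Cre-Kdm6b fl/fl embryos, in which Cre expressed from Dermo1 (Twist2) removes Kdm6b in dermal fibroblasts, and replicates 7 and 9 came from WT embryos of that stage. The labels state a sort for GFP, as the sign of the deletion, for all samples including WT, and do not give the alleles or Cre of the WT cells. The sources used here do not say whether replicates were separate embryos, so each p-value speaks of the spread among these 4 libraries and no more. The question put to the data is how far H3K27me3 extends over these genes with and without Kdm6b, which is not the only enzyme that removes it.

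Only peak lists were used, without read counts, so the depth behind a peak is unknown and a base without a peak is not shown to lack the mark. The Kdm6b-cKO lists covered 123.9 to 148.3 Mb and the WT lists 61.5 to 91.4 Mb, with WT replicate 9 the shortest. The mean difference over all tested genes was 17.2 points of promoter cover and 4.06 kb of the wide window, and each difference below stands beside that shift. None of 14 promoters of fibroblast marker genes was marked in any library, where marked means at least 500 bp covered, and all 10 promoters of neuronal regulators were marked in all 4. Markers of other cell types that cultures can hold were marked at 6 of 8 promoters for keratinocytes, 3 of 6 for endothelium, 5 of 6 for skeletal muscle and 4 of 6 for immune cells in at least 1 library, and those of adipocytes at 7 of 8. The adipocyte list includes the members Cidec and Plin1, and 28.8% of all promoters were marked in at least 1 library. The promoter of Kdm6b had no covered base in any library, which does not test the deletion.

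H3K27me3 was found at the promoters of 4 of the 10 genes, Cidec, Plin1, Plin5 and Dgat2, and the covered length at each was greater in both Kdm6b-cKO libraries than in both WT libraries. The promoters of Plin2, Plin4, Pnpla2, Lipe, Fasn and Scd1 had no covered base in any library. For comparison, 28.8% of all protein-coding genes had a marked promoter in at least 1 library and 68.5% had no covered base there. By library, 4 and 4 of the 10 promoters were marked in Kdm6b-cKO replicates 3 and 4, and 1 and 2 in WT replicates 7 and 9. All 4 of these promoters had both Kdm6b-cKO libraries above both WT libraries, as did 49.0% of the 6251 promoters with 500 bp covered in some library and 14.5% of all promoters. The reverse order was found at 0 of the 10 promoters and at 0.741% of all. Cidec and Plin1 were marked in the Kdm6b-cKO libraries and unmarked in WT, a pattern held by 4.28% of all genes. Plin5 was the member marked in all 4 libraries, as 15.2% of all genes were.

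In the wide window 8 of the 10 genes were marked, the exceptions being Plin2 and Fasn, against 54.4% of all genes. No base was covered at Plin2 and Fasn, as at 42.7% of all genes. The window was marked in all 4 libraries at 6 members, against 33.8% of all genes, and in the Kdm6b-cKO libraries alone at 1, Lipe, against 6.79%. Summed over the 10 genes, 76.9 and 78.2 kb were covered in Kdm6b-cKO replicates 3 and 4, 58.4 kb in WT replicate 7 and 32.8 kb in WT replicate 9. The windows of Plin4 and Plin5 share 42.2 kb, so cover there enters these sums and the other values of this paragraph for both genes. At 6 of these 8 genes the groups did not overlap, with Kdm6b-cKO higher, against 65.3% of all genes tested at this width and 35.9% of all genes, and the reverse held at 0 members and 0.939% of all genes. The median difference over the 8 genes was 2.98 kb, against 2.41 kb over all 11829 tested genes, and their mean was 3.995 kb against 4.06 kb.

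**Figure D1:**
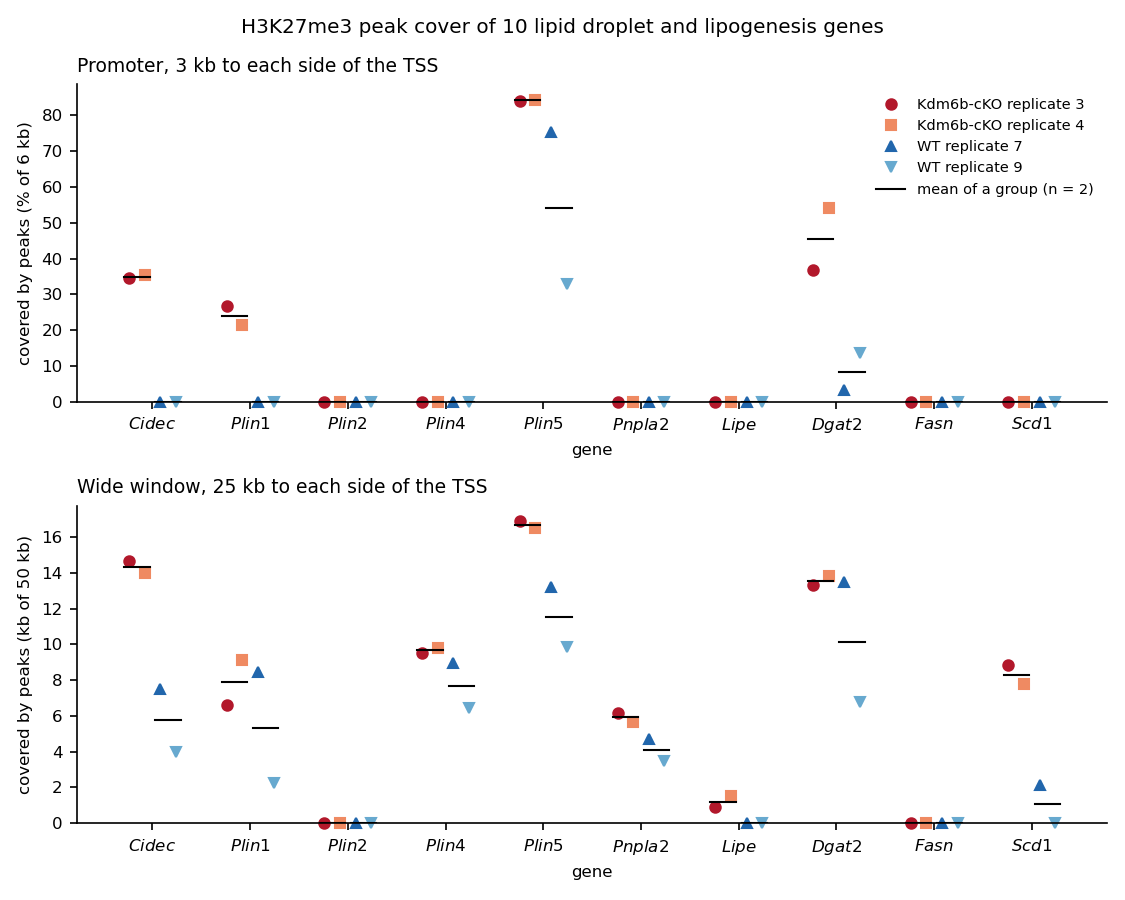
Share of the promoter (top, % of 6 kb) and length of the wide window (bottom, kb of 50 kb) covered by H3K27me3 peaks at each of the 10 genes. Points are the 4 libraries and short lines the mean of the 2 libraries of a group, and the promoters of Cidec and Plin1 are covered in both Kdm6b-cKO libraries and uncovered in both WT libraries.

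Differences were tested with limma with Benjamini-Hochberg adjustment over all genes that had at least 500 bp covered in at least 1 library, 6251 at the promoter and 11829 in the wide window. At the promoter, 7.93% of the tested genes had a higher covered share in Kdm6b-cKO and 0.096% had a lower one at an adjusted p under 0.05. Of the 4 tested members 1 was higher, Cidec, and 0 were lower. Cidec and Plin1 entered the test through their Kdm6b-cKO cover alone, with 0% in both WT libraries. A lower call was therefore not open to them. Without the filter, over 21728 promoters, the difference at Cidec was 34.96 points with a limma adjusted p of 0.01095. In the wide window, where 7.69% of the tested genes were higher and 0.0% lower, 0 of the 8 tested members passed limma in either direction. Lipe, with 0 kb in both WT libraries, entered that test through Kdm6b-cKO alone. At an unadjusted limma p under 0.05, 3 of the 8 members (Cidec, Plin5 and Scd1) were higher, as were 3993 of all 11829 tested genes. In the plot of difference against adjusted p, the members lie within the cloud of tested genes.

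**Figure D2:**
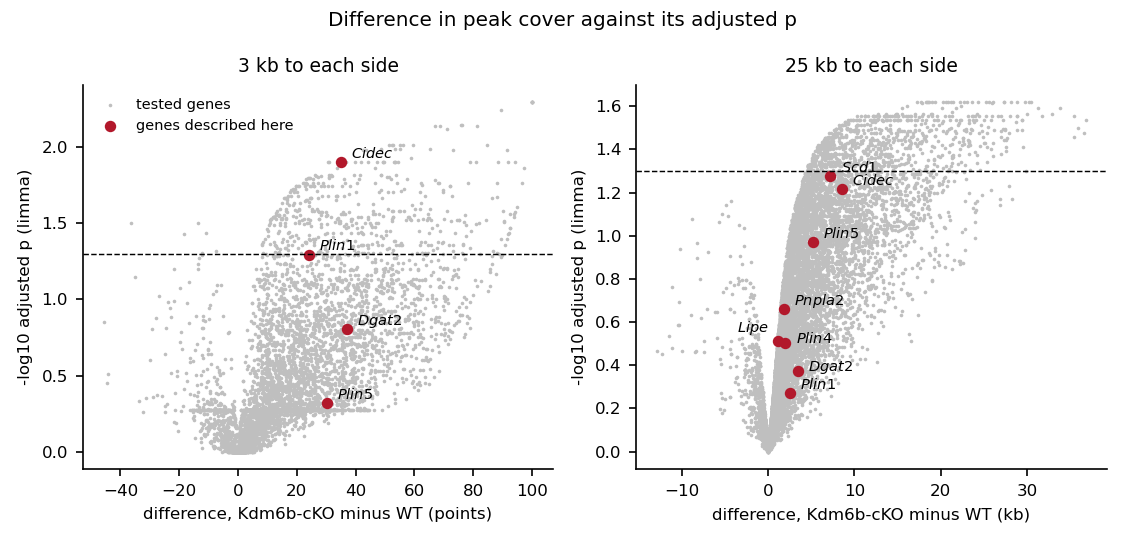
Difference between the group means (horizontal axis, Kdm6b-cKO minus WT) against −log10 of the limma adjusted p (vertical axis), for the promoter (left, points of cover) and the wide window (right, kb). Grey points are all tested genes, red points the members that could be tested and the dashed line an adjusted p of 0.05, with Cidec above the line at left and no member above it at right.

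Promoter sequence is shown for 4 members with different peaks around the start site. The promoters of Cidec and Plin1 were covered in Kdm6b-cKO alone, Plin5 was covered in 3 libraries across its start, and Fasn in none. The TSS of Cidec itself lay under a peak in Kdm6b-cKO replicate 3 alone. That of Plin1 did so in Kdm6b-cKO replicate 4, and the replicate 3 peak began 0.003 kb downstream. Each run is the part of the RefSeq promoter window (GRCm38.p6, the assembly behind mm10) that lies before the start of the GENCODE gene record, on the strand of the gene, with each CG dinucleotide in capitals. The windows are chr6:113435761-113436010 for Cidec, chr7:79732904-79733026 for Plin1, chr17:56117597-56117798 for Plin5 and chr11:120824548-120824797 for Fasn, all on the minus strand.
Cidec: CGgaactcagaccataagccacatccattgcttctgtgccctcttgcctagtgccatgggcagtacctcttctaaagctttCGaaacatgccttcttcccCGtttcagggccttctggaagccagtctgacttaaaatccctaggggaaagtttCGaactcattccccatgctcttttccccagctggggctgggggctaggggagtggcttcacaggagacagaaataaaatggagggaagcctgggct
Plin1: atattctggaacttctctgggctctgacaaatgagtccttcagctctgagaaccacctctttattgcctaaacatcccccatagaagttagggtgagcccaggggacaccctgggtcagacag
Plin5: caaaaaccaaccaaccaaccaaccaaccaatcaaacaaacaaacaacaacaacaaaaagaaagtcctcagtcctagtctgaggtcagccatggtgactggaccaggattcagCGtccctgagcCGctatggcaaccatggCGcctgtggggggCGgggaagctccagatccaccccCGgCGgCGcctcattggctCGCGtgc
Fasn: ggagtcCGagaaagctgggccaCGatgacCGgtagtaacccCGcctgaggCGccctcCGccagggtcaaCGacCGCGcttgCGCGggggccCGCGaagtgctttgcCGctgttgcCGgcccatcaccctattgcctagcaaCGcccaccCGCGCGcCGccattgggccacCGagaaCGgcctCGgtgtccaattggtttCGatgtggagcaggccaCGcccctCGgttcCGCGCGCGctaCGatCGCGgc
The printed runs hold 4 CG dinucleotides in the 250 bases of Cidec, 0 in the 123 bases of Plin1, 9 in the 202 bases of Plin5 and 33 in the 250 bases of Fasn. Peaks covered 109 bases of the Cidec run in Kdm6b-cKO replicate 3, 35 bases of the Plin1 run in Kdm6b-cKO replicate 4, and all 202 bases of the Plin5 run in both Kdm6b-cKO libraries and WT replicate 7. The Fasn run was uncovered in all 4 libraries.

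RefSeq promoter windows of 300 bases, 250 before the start and 50 after it, were matched for 8 of the 10 genes and not for Dgat2 and Scd1. They held from 2 CG dinucleotides (Plin1) to 39 (Fasn), against a median of 14 (quartiles 4 and 25) over 20061 promoters of protein-coding genes. Cidec held 6 and Plin5 held 16, while Plin4, Plin2, Pnpla2 and Lipe, whose promoters were unmarked, held 7, 10, 18 and 19. The RefSeq start used for Lipe lies 2723 bases from the start of its gene record. Motifs were searched on both strands and none of their letter strings contains another. TATAAA was in 0 of the 8 windows (12.1% of all promoters), GGGCGG in 4 (48.0%), CCAAT in 4 (37.9%) and AGGTCA, a core element bound by nuclear receptors, in 2 (14.3%). The windows with AGGTCA were those of Plin2 and Plin5.

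Cidec encodes a protein that fuses droplets into the large droplet of the white adipocyte, and its promoter rose from no covered base in WT to partial cover in Kdm6b-cKO. The gene (ENSMUSG00000030278.11) lies on chromosome 6 from 113424634 to 113435760, minus strand. Its promoter was covered over 34.6% in Kdm6b-cKO replicate 3 and 35.3% in replicate 4, and over 0% in both WT libraries. The groups did not overlap. The difference was 34.96 points (SE 0.781, 95% interval 32.2 to 37.7, limma adjusted p = 0.0126), with 0 bases covered in WT and therefore no fold. The SE is close to the 0.714 that limma gave the promoter of Cidea, which was covered over 100% in all 4 libraries. It is thus mostly a spread shared over tested promoters, and the narrow interval does not measure how Cidec varies between replicates.

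The near equal shares at Cidec came from peaks at different places, as the plot of peaks around the genes shows. Positions are given in the direction of transcription, with negative values upstream of the TSS. In Kdm6b-cKO replicate 3 a peak ran from -0.109 to 1.35 kb, over exons 1 and 2 of the 6 exons, and the next began at 2.38 kb and ran to 5.57 kb, over exon 3. In replicate 4 a single peak ran from 0.882 to 5.76 kb and left the TSS uncovered. Of the promoter bases covered in either Kdm6b-cKO library, 34.9% were covered in both, a length of 1.085 kb.

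Further into Cidec, WT libraries carried peaks as well. Of the 11.1 kb gene body, 62.2% and 66.6% was covered in Kdm6b-cKO replicates 3 and 4, against 22.98% in WT replicate 7 and 2.40% in WT replicate 9. The WT replicate 7 peaks lay from 5.15 to 6.97 kb and from 8.67 to 9.41 kb, and the peak of WT replicate 9 spanned 0.267 kb, from 3.29 to 3.56 kb. A long domain upstream, over the promoter of Il17re, which encodes a subunit of an interleukin receptor, was present in all 4 libraries. The Il17re promoter was covered over 100% in both Kdm6b-cKO libraries, 90.4% in WT replicate 7 and 74.3% in WT replicate 9, while the promoter of Jagn1, which lies between the genes, was uncovered in all 4.

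In the wide window of Cidec, 14.7 and 13.99 kb were covered in Kdm6b-cKO replicates 3 and 4, 7.52 kb in WT replicate 7 and 4.003 kb in WT replicate 9. The groups did not overlap, and the ratio of the means was 2.49. The difference of 8.57 kb (SE 1.502, 95% interval 4.13 to 13.001) was the largest of the 10 genes and missed the threshold (limma adjusted p = 0.0609). Without WT replicate 7 the difference was 10.3 kb, in a fit where the lone WT library is assumed to vary like the Kdm6b-cKO pair. The promoter call was lost without WT replicate 9 (adjusted p = 0.0844), with values centred on each library's mean (17.8 points, adjusted p = 0.180), with peak numbers made equal by strength (22.8 points, adjusted p = 0.427), with only peaks of −log10 q of at least 4 (5.17 points, adjusted p = 0.571) and in a window of 1 kb to each side (30.7 points, adjusted p = 0.648). With the strongest peaks up to an equal covered length, the promoter of Cidec had no covered base in any library and was not tested.

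**Figure D3:**
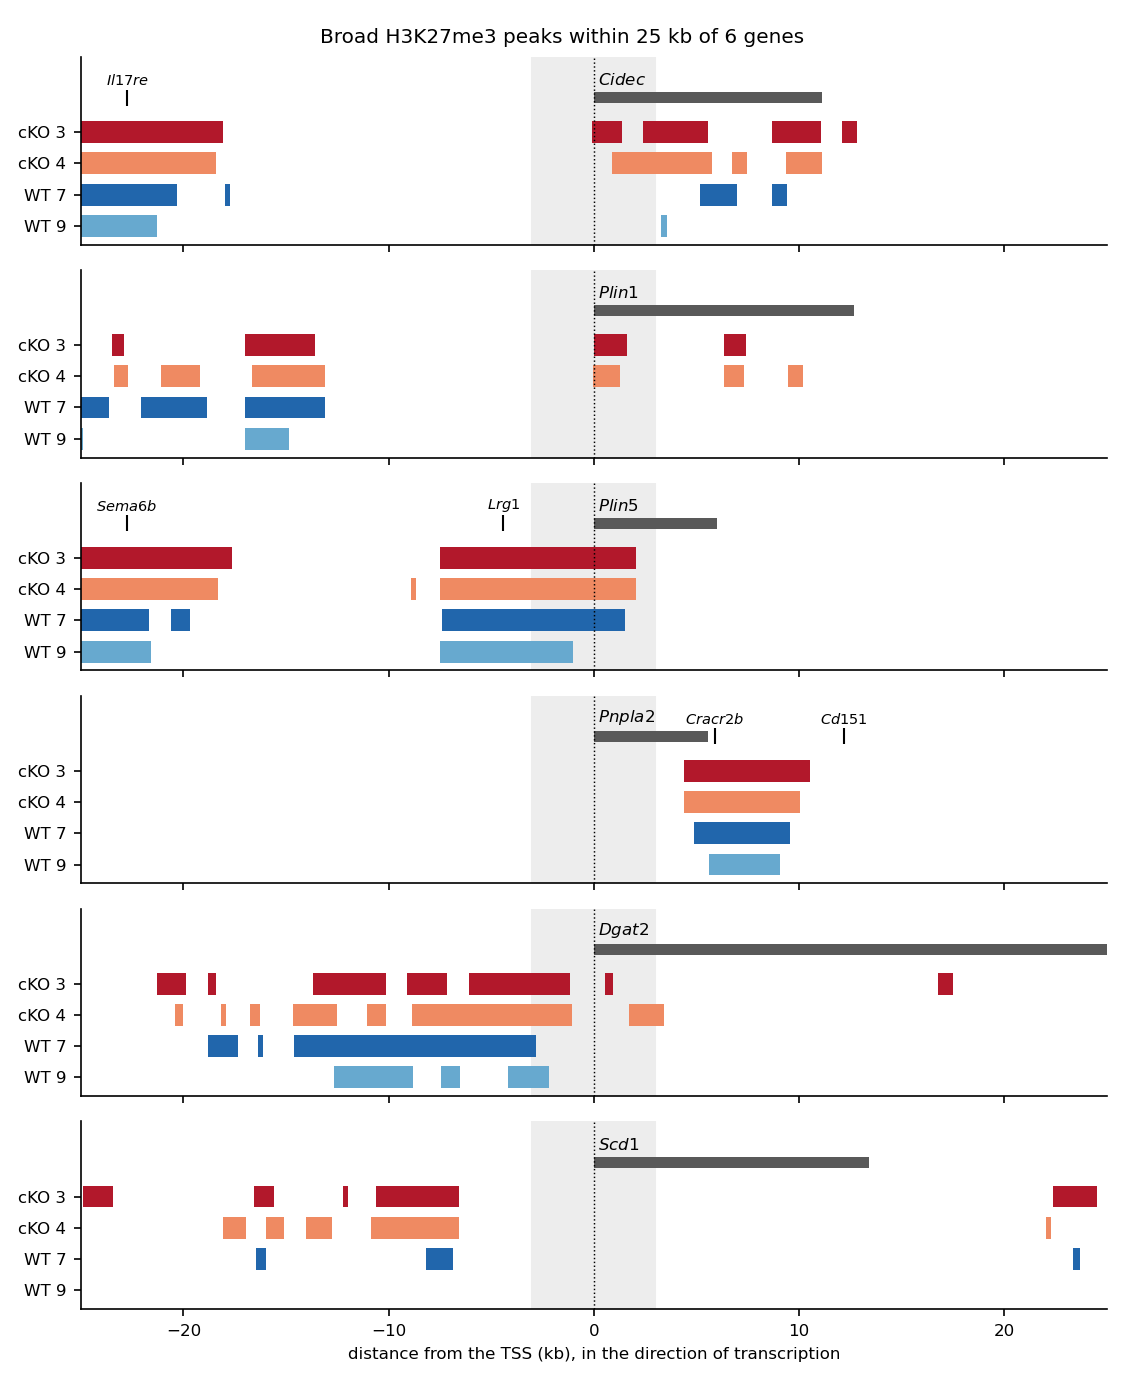
Broad H3K27me3 peaks of each library (cKO for Kdm6b-cKO) as bars within 25 kb of the TSS of 6 genes, against the distance from the TSS in kb in the direction of transcription. The dark bar is the gene body, ticks mark the TSS of neighbours with a marked promoter, and the shaded band is the promoter, in which Cidec and Plin1 show bars in the Kdm6b-cKO libraries and none in the WT libraries.

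Plin1 encodes perilipin 1, the coat protein that guards the adipocyte droplet from lipases. It lies on chromosome 7 from 79720218 to 79732903, minus strand. Its promoter was covered over 26.7% in Kdm6b-cKO replicate 3, 21.4% in replicate 4 and 0% in both WT libraries, so the groups did not overlap. The difference of 24.025 points (SE 2.43, 95% interval 15.5 to 32.6) lay just short of the threshold (limma adjusted p = 0.0507). The adjusted p was 0.0195 on the arcsine scale, 0.0499 with the TSS of the principal transcript and 0.00269 in the window of 1 kb (50.9 points), but 0.244 without a filter, 0.590 when centred (6.84 points), 0.180 without WT replicate 7 and 0.248 without WT replicate 9. At equal covered length and at −log10 q of at least 4 the promoter of Plin1 had no covered base in any library and was not tested. Without Kdm6b-cKO replicate 3 or 4 the difference was 21.4 or 26.7 points. There the WT pair, both at 0%, has no spread of its own, and limma takes the spread from the other tested promoters.

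In contrast to Cidec, the Kdm6b-cKO peaks of Plin1 began at the same place in both libraries. They ran from 0.003 to 1.60 kb in replicate 3 and from -0.035 to 1.25 kb in replicate 4, over exons 1 and 2 of 9, and 76.1% of the bases covered in either were covered in both. A further peak over exons 5 and 6, from 6.34 to 7.42 kb and from 6.36 to 7.33 kb, was again shared by the Kdm6b-cKO libraries. No base of the Plin1 gene body was covered in either WT library, against 21.1% and 23.3% in Kdm6b-cKO replicates 3 and 4.

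Upstream of Plin1 the order differed. The wide window held 6.62 and 9.14 kb in Kdm6b-cKO replicates 3 and 4 and 8.43 and 2.24 kb in WT replicates 7 and 9, so the groups overlapped. The difference was 2.54 kb (SE 2.62, 95% interval -5.19 to 10.3, limma adjusted p = 0.537) and turned to -0.554 kb without WT replicate 9, against 5.64 kb without WT replicate 7. The upstream 25 kb alone held 8.43 kb in WT replicate 7, more than the 3.94 and 6.18 kb of the Kdm6b-cKO libraries. A region from -17.0 to -13.1 kb was covered in part in all 4 libraries, and one from -27.1 to -23.6 kb in the WT pair alone.

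Plin2 encodes the perilipin found on droplets of most cell types, and its gene (chromosome 4, 86648386 to 86670060, minus strand) held no peak in any library. All 4 libraries had 0 kb covered in the wide window. The nearest peaks lay 27.1 to 29.9 kb downstream of the TSS, beyond the end of the 21.7 kb gene, in every library.

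Plin5, which encodes the perilipin of tissues that burn fat, such as muscle and liver, was the member with the most covered promoter. The gene lies on chromosome 17 from 56111601 to 56117596, minus strand. The promoter was covered over 84.0% and 84.4% in Kdm6b-cKO replicates 3 and 4, 75.5% in WT replicate 7 and 32.8% in WT replicate 9. Both Kdm6b-cKO values were higher, and the WT libraries stood further apart from each other than WT replicate 7 did from the Kdm6b-cKO libraries. The difference was 30.1 points (SE 18.9, 95% interval -36.3 to 96.5, limma adjusted p = 0.480), and it was 51.5 points without WT replicate 7 (adjusted p = 0.0415) and 8.74 points without WT replicate 9 (adjusted p = 0.131). In both of these fits the Kdm6b-cKO pair is the only pair left to show a spread at Plin5, although the WT pair lay far apart.

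The mark at Plin5 was the edge of a domain that began at nearly 1 place upstream in all libraries, at -7.49, -7.48, -7.41 and -7.47 kb in the order given above. It ended inside the gene at 2.04 and 2.07 kb in Kdm6b-cKO, over exons 1 to 4 of 8, and at 1.53 kb in WT replicate 7, and it stopped at -1.03 kb in WT replicate 9, before the TSS. The same peak covered 100% of the promoter of Lrg1, which encodes a secreted glycoprotein, in all 4 libraries. Its authors' fold over local background was 5.56 and 5.48 in Kdm6b-cKO and 4.01 and 4.02 in WT, with −log10 q of 15.5, 15.0, 7.55 and 6.70. Within its own list this peak stood at or above the 96.7th percentile of −log10 q in every library.

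In the wide window of Plin5, 16.9 and 16.5 kb were covered in Kdm6b-cKO replicates 3 and 4, 13.2 kb in WT replicate 7 and 9.86 kb in WT replicate 9. Both Kdm6b-cKO values lay above both WT values, with a difference of 5.18 kb (SE 1.42, 95% interval 0.976 to 9.38, limma adjusted p = 0.107). A second domain in this window reached the promoter of Sema6b, which encodes a semaphorin, and covered 100% of it in both Kdm6b-cKO libraries, 82.1% in WT replicate 7 and 69.5% in WT replicate 9.

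Plin4, which encodes a perilipin of small droplets in adipocytes and muscle, starts 7.79 kb downstream of Plin5, on chromosome 17 from 56100591 to 56109803, minus strand. Neither its promoter nor its gene body had a covered base in any library. Its wide window shares 42.2 kb with that of Plin5, so the values of these genes are not independent. It held 9.53 and 9.81 kb in Kdm6b-cKO replicates 3 and 4, 8.94 kb in WT replicate 7 and 6.44 kb in WT replicate 9, nearly all of it the domain at Plin5 and Lrg1. The groups did not overlap, and the difference of 1.98 kb (SE 1.15) did not pass limma (adjusted p = 0.313). It was 0.728 kb without WT replicate 9 and 3.23 kb without WT replicate 7.

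Pnpla2 encodes ATGL, the lipase that makes the first cut in a stored triglyceride, and Lipe encodes the hormone-sensitive lipase that makes the next. Pnpla2 lies on chromosome 7 from 141455198 to 141460743, plus strand, and Lipe on chromosome 7 from 25379527 to 25398710, minus strand. Neither promoter had a covered base in any library. The wide window of Pnpla2 held 6.16 and 5.67 kb in Kdm6b-cKO replicates 3 and 4, 4.69 kb in WT replicate 7 and 3.45 kb in WT replicate 9, without overlap of the groups. The difference was 1.84 kb (SE 0.815, limma adjusted p = 0.218), and 1.22 kb without WT replicate 9.

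All of the length at Pnpla2 was 1 peak at its 3′ end. It began at 4.39 kb in both Kdm6b-cKO libraries, at 4.86 kb in WT replicate 7 and at 5.59 kb in WT replicate 9, and ended at 10.5, 10.1, 9.55 and 9.04 kb. It touched exon 8, the last of Pnpla2, in both Kdm6b-cKO libraries and WT replicate 7. The peak lay over the promoter of Cracr2b, which encodes a regulator of calcium entry, covered over 75.1% in both Kdm6b-cKO libraries, 67.3% in WT replicate 7 and 55.0% in WT replicate 9. The promoter of Cd151, a tetraspanin gene further on, was covered over 22.6% and 14.4% in Kdm6b-cKO and 5.88% and 0% in WT.

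Lipe had the least of the marked genes. Its wide window held 0.878 kb in Kdm6b-cKO replicate 3, 1.52 kb in replicate 4 and 0 kb in both WT libraries, in 1 region from -24.6 to -23.1 kb at the rim of the window. The groups did not overlap, and the difference of 1.20 kb (SE 0.685, limma adjusted p = 0.306) did not pass.

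Dgat2 encodes the acyltransferase that adds the last fatty acid to a triglyceride. It lies on chromosome 7 from 99153658 to 99182719, minus strand. Its promoter was covered over 36.7% and 54.2% in Kdm6b-cKO replicates 3 and 4, 3.22% in WT replicate 7 and 13.6% in WT replicate 9. The groups did not overlap, and here WT replicate 9 was the higher WT library although its list is the shortest. The difference of 37.1 points (SE 8.996, 95% interval 5.47 to 68.7, limma adjusted p = 0.157) was the largest at a member promoter and passed only with peaks of −log10 q of at least 4 (33.0 points, adjusted p = 0.0242).

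Most of that promoter mark was the end of an upstream domain of Dgat2. Its peak nearest to the TSS ended at -1.18 and -1.06 kb in Kdm6b-cKO replicates 3 and 4, at -2.81 kb in WT replicate 7 and at -2.19 kb in WT replicate 9. Downstream of the TSS, each Kdm6b-cKO library had a peak in the promoter that the other lacked, from 0.530 to 0.910 kb in replicate 3 and from 1.69 kb in replicate 4, outside the exons of the principal transcript. The wide window held 13.3 and 13.8 kb in the Kdm6b-cKO libraries, with 13.5 kb in WT replicate 7 and 6.76 kb in WT replicate 9, so the groups overlapped there. The difference was 3.42 kb (SE 2.64, 95% interval -4.38 to 11.2, limma adjusted p = 0.423), and it was 0.0555 kb without WT replicate 9 and 6.79 kb without WT replicate 7.

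Fasn encodes fatty acid synthase, which builds palmitate, and Scd1 encodes the desaturase that turns saturated into monounsaturated fatty acids. Fasn (chromosome 11, 120805846 to 120824547, minus strand) had 0 kb covered in the wide window in all 4 libraries. Its nearest peaks lay 57.2 to 60.8 kb downstream of the TSS in the 4 libraries, farther than those of any other member.

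Scd1 (chromosome 19, 44394455 to 44407879, minus strand) had no covered base in its promoter or gene body, but its flanks differed between the groups. The wide window held 8.84 and 7.78 kb in Kdm6b-cKO replicates 3 and 4, 2.16 kb in WT replicate 7 and 0 kb in WT replicate 9, without overlap. The ratio of the means was 7.70, and the difference of 7.23 kb (SE 1.12, 95% interval 3.94 to 10.5) lay just short of the threshold (limma adjusted p = 0.0531). Most of the length lay upstream, with 6.69 and 7.51 kb there in Kdm6b-cKO and, in WT, 1.81 and 0 kb. The region nearest to the TSS, from -10.9 to -6.59 kb, was covered over 4.02 and 4.26 kb in Kdm6b-cKO, 1.28 kb in WT replicate 7 and 0 kb in WT replicate 9. Of the bases covered in either Kdm6b-cKO library, 36.5% were covered in both.

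After overlapping peaks of the 4 lists were merged, 32 distinct regions touched the wide windows. Of these, 7 were present in all 4 libraries, with a median length of 9.56 kb, and 5 in the Kdm6b-cKO pair but not in WT, with a median of 1.45 kb. The 5 comprise 3 regions at Plin1, 1 at Lipe and 1 at Dgat2. Another 11 were present in 1 Kdm6b-cKO library alone and 1 in a WT library alone, and 1 in the WT pair alone. Counted in bases, and with Plin4 left out because its window repeats that of Plin5, 21.5 kb were covered in all 4 libraries, 18.5 kb in the Kdm6b-cKO pair but not in WT, and 1.13 kb in the WT pair but not in Kdm6b-cKO. Cidec gave 6.50 kb of the bases in Kdm6b-cKO alone, Scd1 3.13 kb, Plin5 2.87 kb and Plin1 2.72 kb.

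The members fell apart when the peak lists were cut to an equal covered length. This kept 5183 and 6975 peaks of Kdm6b-cKO replicates 3 and 4, 9588 of WT replicate 7 and all 22597 of WT replicate 9. By this rule a weaker peak is dropped from a Kdm6b-cKO list where it would be kept in that of WT replicate 9. With the strongest peaks of each library taken up to the covered length of WT replicate 9, Plin5, Plin4 and Pnpla2 kept the order of the libraries, and the wide window of Pnpla2 held 6.16, 5.67, 4.69 and 3.45 kb as before, while that of Plin5 held 16.9, 16.2, 12.3 and 9.86 kb. Cidec kept 6.91 and 8.37 kb in the Kdm6b-cKO libraries, above the 4.70 and 4.003 kb of WT. Plin1 went to 0 kb in both Kdm6b-cKO libraries and 3.87 and 2.24 kb in WT, Scd1 to 0 kb in both Kdm6b-cKO libraries and 1.28 and 0 kb in WT, and Lipe to 0 kb in all 4. None of these differences passed limma, with adjusted p of 0.151 for Cidec, 0.108 for Plin5, 0.308 for Pnpla2, 0.172 for Plin1 and 0.670 for Scd1. In the plot by choice of peaks, the lines for Plin4, Plin5 and Pnpla2 are nearly flat. At equal covered length the Kdm6b-cKO lines of Plin1, Lipe and Scd1 drop to 0 kb, while both WT lines of Plin1 and that of WT replicate 7 at Scd1 stay above it. At −log10 q of at least 4 all lines of Plin1 and Scd1 are at 0 kb, and Kdm6b-cKO replicate 3 at Lipe is at 0.878 kb.

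**Figure D4:**
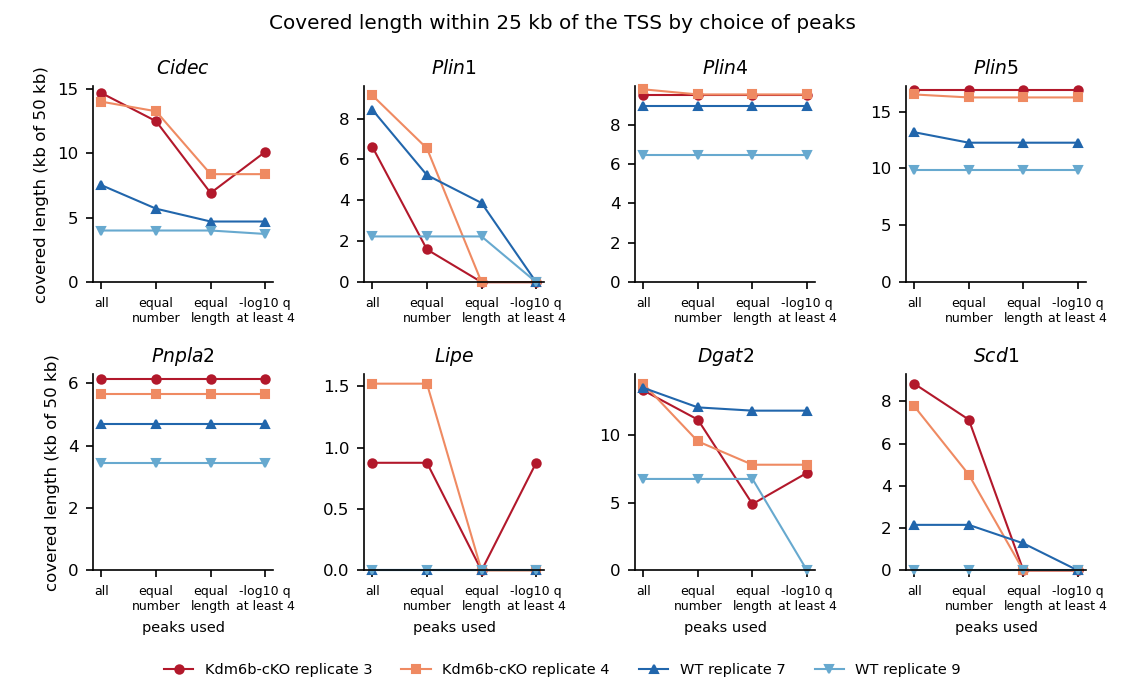
Length covered within 25 kb of the TSS (vertical axis, kb of 50 kb) at the 8 marked members under 4 choices of peaks: all, equal numbers chosen by strength, the strongest up to an equal covered length, and those of −log10 q of at least 4. Each line is 1 library, and at equal covered length the 2 Kdm6b-cKO lines of Plin1 and Scd1 reach 0 kb.

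The peaks kept above were ranked by the authors' −log10 q, so its percentiles within each list restate that split and are no second line of evidence. The peaks at the Cidec promoter stood at percentiles 39.1 and 86.1 of the list of Kdm6b-cKO replicate 3 and 54.9 of that of replicate 4, and the promoter peak of Plin1 at 50.9 and 77.5. The peak at Pnpla2 stood at 98.2 in both Kdm6b-cKO libraries, 97.3 in WT replicate 7 and 91.1 in WT replicate 9.

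Other genes of droplet and fat metabolism were counted from lists of pathway genes. Over all tested genes 7.93% of promoters and 7.69% of wide windows were called higher, and the counts below stand beside those shares. Of 14 further droplet and lipolysis genes, 11 were tested in the wide window and 1 was higher in Kdm6b-cKO, Fitm2, which encodes a protein of droplet budding (24.9 and 24.6 kb in the Kdm6b-cKO libraries against 11.1 and 5.30 kb, limma adjusted p = 0.0472). Of 23 genes of fatty acid and triglyceride synthesis, 17 were tested there and 2 were higher, Acacb, an acetyl-CoA carboxylase gene (6.22 and 7.54 kb against 0.670 and 0 kb, adjusted p = 0.0445), and Mogat2, an acyltransferase gene (16.2 and 15.4 kb against 6.45 and 3.03 kb, adjusted p = 0.0459). At promoters of this list 12 were tested and 1 was higher, that of Lpin1, which encodes a phosphatidate phosphatase (100% in both Kdm6b-cKO libraries against 19.1% and 34.8%, adjusted p = 0.0482). Of 10 genes of fatty acid uptake, Gpihbp1, which encodes the anchor of lipoprotein lipase, was higher at both widths, as 1 of 4 promoters and 1 of 7 wide windows tested (promoter 37.4% and 32.2% against 0% in both WT libraries, adjusted p = 0.0314). At either width 0 genes of these lists passed limma as lower. At an unadjusted p under 0.05, 1 promoter was lower, that of the desaturase gene Scd3 (15.5% and 14.6% against 23.1% and 26.9%, limma adjusted p = 0.114), named after its values were seen. Of all 6251 tested promoters, 44 were lower at that threshold.

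Of 12 regulators of lipogenesis, 4 promoters and 8 wide windows were tested and 0 passed limma, with 1 and 3 higher at an unadjusted p under 0.05. Over all tested genes, 1599 of 6251 promoters and 3993 of 11829 wide windows were higher at that unadjusted threshold. After adjustment 7.93% of promoters and 7.69% of wide windows were higher. The promoter of Cebpa, which encodes a transcription factor of adipocyte differentiation, was covered over 57.6% and 78.5% in Kdm6b-cKO and 22.0% and 5.32% in WT (limma adjusted p = 0.137). At droplet and lipolysis promoters 0 of 4 passed, with 0 at an unadjusted p under 0.05. Of the adipokine genes 1 of 6 promoters was higher, that of Apln (limma adjusted p = 0.0338), and 0 of 6 wide windows, with 3 at an unadjusted p under 0.05. Apln lies on the X chromosome, the study's methods do not give the sex of the embryos, and an effect of sex was not tested. Of the brown fat identity genes 0 of 8 promoters were higher, with 1 at an unadjusted p under 0.05, and 1 of 10 wide windows, that of Prdm16 (limma adjusted p = 0.0381). The median difference in the wide window over tested genes was 1.31 kb for droplet and lipolysis genes, 2.39 kb for synthesis, 0.968 kb for uptake, 2.17 kb for regulators, 7.22 kb for adipokines and 4.03 kb for brown fat identity, against 2.98 kb for the 8 members tested and 2.41 kb for all tested genes.

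**Figure D5:**
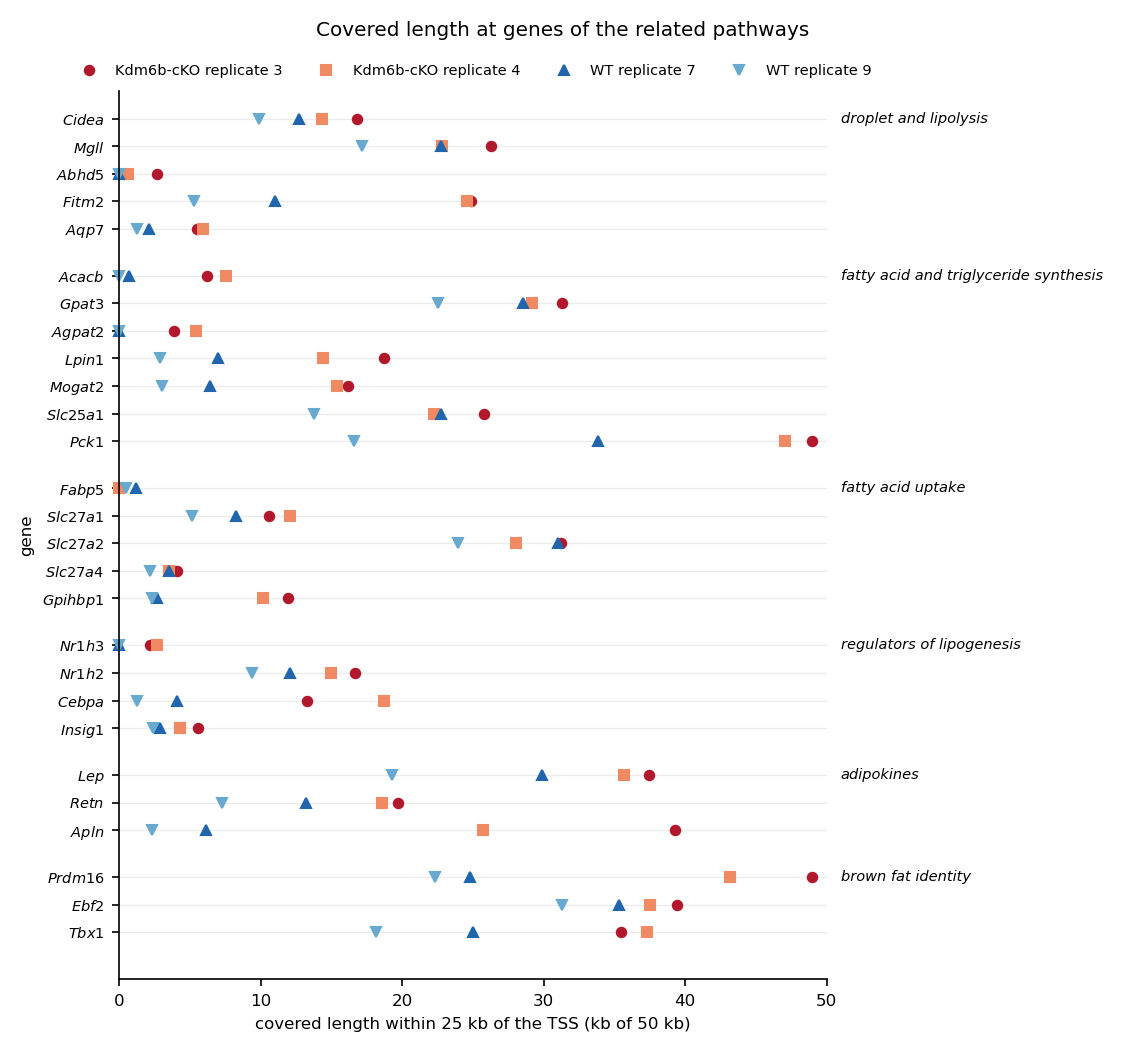
Length covered within 25 kb of the TSS (horizontal axis, kb of 50 kb) at named genes of 6 related lists (vertical axis), with 1 point per library. Both Kdm6b-cKO points lie to the right of both WT points for Fitm2, Acacb, Mogat2, Gpihbp1 and Prdm16, which passed limma at this width, and also for genes that did not.

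Among the genes plotted that did not pass in the wide window, differences ran from -0.821 kb at Fabp5, which encodes a fatty acid binding protein, to 28.3 kb at the X-linked Apln, which encodes the peptide apelin. Mgll and Abhd5 of lipolysis differed by 4.58 and 1.65 kb, Cidea by 4.28 kb and Aqp7, a glycerol channel gene, by 4.01 kb. In synthesis, Pck1 differed by 22.8 kb, Lpin1 by 11.6 kb, Slc25a1 by 5.74 kb, Gpat3 by 4.68 kb and Agpat2 by 4.66 kb. The fatty acid transporter genes Slc27a1, Slc27a2 and Slc27a4 differed by 4.67, 2.12 and 0.968 kb, and Cebpa, Nr1h2, Nr1h3 and Insig1 among regulators by 13.3, 5.06, 2.43 and 2.26 kb. Lep, Retn, Tbx1 and Ebf2 differed by 12.0, 8.91, 14.8 and 5.14 kb.

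The genes whose covered lengths in the 4 libraries and both windows were closest to those of Cidec, outside 100 kb of it, were Ttc38, Sf3b2 and Urah, at Euclidean distances of 2.01, 2.08 and 2.29 kb. Their wide windows held 13.5 to 14.9 kb in Kdm6b-cKO and 4.16 to 8.43 kb in WT. Of the 3, Urah passed limma at the promoter (adjusted p = 0.0444), as Cidec did, and Sf3b2 in the wide window (adjusted p = 0.0423).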

How the data were processed

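The authors made a separate list of broad peaks for each library with MACS2 (2.2.7.1) at a q-value of 0.01, after alignment with Bowtie2 (2.3.5.1) to mm10 and subsampling to like read numbers, per the submitters' processing notes and the study's methods. How the input entered the calling is not given in the sources used here, and the input was not used. The deposited lists give peak positions with the authors' score, fold ratio and −log10 p and −log10 q per peak. The −log10 q ranked and filtered peaks, the fold ratio described them, and the score was not used further. The lists hold no counts, so no count model or counting interval was possible.

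The members and gene lists were chosen with earlier results of these data known. Covered bases were counted around the 5′ end of the GENCODE M21 gene record for 21728 protein-coding genes, leaving out 27 records with repeated symbols. Groups came from the titles, 2 Kdm6b-cKO and 2 WT libraries. The covered percent (promoter) or kb (wide window) was compared with limma (3.58.1, R 4.3.3, lmFit and eBayes, two-sided) over windows with at least 500 bp covered in at least 1 library, adjusted by Benjamini-Hochberg and called at 0.05. The study's own differential test needs reads and was not run. Covered shares end at 0% and 100%, and with 2 libraries a group the SE rests on few values. The eBayes step draws the spread of each gene towards a value shared by all tested genes.

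Named were the 10 members, pathway genes that passed limma with up to 4 more of each list by size of difference (3 for adipokine and brown fat lists), neighbours within 25 kb with a marked promoter, 3 genes most like the member of largest difference, and Kdm6b. Alternatives were an equal number of peaks, equal covered length, −log10 q of at least 4, the principal transcript's TSS, no filter, centring, an arcsine scale, other widths and leaving out each library. Peak cover and limma functions were tested on simulated data. Python 3.11.15, numpy 2.4.6, pandas 2.3.3 and matplotlib 3.10.9 were used.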

Additional observations from a re-analysis of the deposited data

How the results depend on the processing

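No paired analysis was possible because the groups share no replicate numbers. Of 148 values of members under the alternatives, 126 kept direction and side of the threshold, 5 lost a call (all Cidec at the promoter), 8 gained one and 9 reversed, and the causes were not tested. As only the Cidec promoter was called in the main fit, most of the 126 stayed uncalled. Members that fell below the filter are not among the 148, such as the Cidec promoter at equal covered length, which had no covered base. Fits without 1 library take a gene's own spread from the other group alone, and limma draws it towards that of all tested genes. Counts of promoters called higher and lower, 496 and 6 as reported, were 151 and 1 without a filter, 133 and 78 at equal covered length, and 0 to 1355 and 0 to 62 when 1 library was left out, the 0 being without WT replicate 9, where 1096 and 153 passed an unadjusted p under 0.05. Lower calls were 58 when centred (493 higher), 11 on the arcsine scale, 16 with equal peak numbers, 11 at −log10 q of at least 4 and 1 in windows of 5 kb. Members called higher at the promoter were 0 when centred, with equal numbers and at equal length, 2 on the arcsine scale and with the principal TSS, and 0 to 2 without 1 library.

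In the wide window, 910 higher and 0 lower became 178 and 3 without a filter, 1430 and 407 when centred, 1735 and 3 on the arcsine scale, 354 and 1 with equal numbers, 68 and 39 at equal length, 404 and 1 within 10 kb, and 0 to 1539 higher without 1 library, with members called 0 to 1. The 0 arose without Kdm6b-cKO replicate 3, Kdm6b-cKO replicate 4 or WT replicate 9, with 2793, 3622 and 2457 higher at an unadjusted p under 0.05, and 1539 without WT replicate 7. Centring, which takes out the shift of 4.06 kb common to tested genes, reversed Plin1 (-1.51 kb), Plin4 (-2.08 kb), Pnpla2 (-2.21 kb), Lipe (-2.85 kb) and Dgat2 (-0.632 kb). Equal length, which kept fewer Kdm6b-cKO than WT peaks, reversed Plin1 (-3.05 kb), Dgat2 (-2.93 kb) and Scd1 (-0.642 kb). Plin1 ranged from -0.554 to 5.64 kb without 1 library, the lowest without WT replicate 9. Marked member promoters were 2 at equal length, and those marked in both Kdm6b-cKO alone 0 at equal length and 1 at −log10 q of at least 4. In the wide window that count was 0 from 1 kb, at equal length and at −log10 q of at least 4.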

Other observations

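Fabp5, which encodes a fatty acid binding protein of skin and fat, had more cover in WT, with 0 kb in both Kdm6b-cKO libraries and 1.17 and 0.475 kb in WT replicates 7 and 9 (limma adjusted p = 0.457). Kdm6b had 2.79 and 4.403 kb covered in its wide window in Kdm6b-cKO replicates 3 and 4 and 0 kb in both WT libraries (limma adjusted p = 0.0917).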
